A study of Mus musculus with 11 samples.

Results

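Cytosolic ribosomal protein genes encode the proteins of the large and small ribosomal subunits. They were taken here as every gene symbol of the deposited table that begins with Rpl or Rps followed by a number and at most one of the endings a, x, l, al or l1, together with Rplp0, Rplp1, Rplp2 and Rpsa, which left out pseudogene symbols and the Rps6k kinases. The rule found 81 of 20640 genes, 51 of the large and 30 of the small subunit, and used no measured value. Of these, 78 reached 1 RPKM (reads per kilobase of gene, scaled to the mapped reads of the library) in at least 2 of the 11 libraries and were tested beside 11490 other genes. The 3 that did not were Rpl10l, listed at 0 in every library, Rpl39l, at most 0.155 RPKM, and Rpl32l, at most 0.452 RPKM. Fau, Rack1 and Rps3a1 also encode ribosomal proteins but fall outside the symbol rule and are described as a separate list. Rps27, Rpl12 and Rpl28 fit the symbol rule but were not among the 81 genes it found, so they could not be analysed here.

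The libraries are bulk RNA-seq of sorted mouse limb muscle stem cells, the resident precursors that repair muscle. All mice were Pax7-CreERT2;Rosa-YFP and received tamoxifen by mouth for 5 days at 12 to 14 weeks of age, so that cells using the Pax7 locus at that time, and their descendants, carry YFP; a cell that lost Pax7 later stays marked. Cells were sorted as YFP+ and lineage-negative with antibodies to Sca-1, CD31 and CD45. The groups are middle-aged YFP+ cells (3 libraries), and YFP+ cells of geriatric mice older than 28 months split by surface VCAM1 into VCAM1-high (3), VCAM1-low (2) and VCAM1-negative (3). The age of the middle-aged mice is given as 10 to 14 months in one label and 12 to 14 months in another, and their titles name no VCAM1 gate, so age, gate and time since labelling cannot be told apart in comparisons with them. The design text names the lower gates differently from the titles, which are followed here. Nothing in the labels says whether replicates are separate animals, so p-values measure the spread between these samples, which may be technical.

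Ribosomal protein mRNAs are among the most abundant of most cells and are made in near-matched amounts, since each protein is needed once per ribosome. Many begin with a run of pyrimidines at the 5' end (the TOP motif), through which mTORC1 signalling controls how much of the mRNA is translated. Resting muscle stem cells are known for low protein synthesis, and leaving quiescence raises ribosome production.

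Depth, estimated from the steps of low RPKM values, ran from 20050000 to 29750000 reads per library. This estimate is rough: 62.5% to 73.0% of those values lay near a whole read, and the authors' gene lengths are not known. Myf5, a muscle stem cell transcription factor gene, stood at 26.7 to 176 RPKM and Pax7 at 1.71 to 7.85 RPKM in all libraries. Vcam1 stood at 418, 188 and 264 RPKM in VCAM1-high replicates 1 to 3, at 177 and 115 in VCAM1-low and at 122, 70.4 and 48.6 in VCAM1-negative, so the lower gates overlapped at the RNA level. Among markers of gated-out cells, Ptprc (CD45) reached at most 3.30 RPKM, Pecam1 (CD31) 20.5 and Ly6a (Sca-1) 66.3. The summed level of 6 macrophage and leukocyte markers was 689 RPKM in VCAM1-high replicate 3 and 2.50 to 193 elsewhere. The summed level of 10 mature myofibre genes was 635, 6547 and 5232 RPKM in the VCAM1-negative libraries and 49.4 to 300.2 RPKM in the other 8. The haemoglobin gene Hbb-bs stood at 4.22 to 125 RPKM in middle-aged, 10.8 to 362 in VCAM1-high and 143 to 498 in the lower gates. Summed smooth muscle markers (3 genes) were highest in middle-aged replicate 1, at 358 RPKM against 32.1 to 180 elsewhere. Summed endothelial markers (6) lay between 13.4 and 106 RPKM, fibro-adipogenic (5) between 180 and 956, Schwann (3) at or below 6.78 and tenocyte markers (2) at or below 19.6.

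Sequences are shown for the members that passed the test described below and have an entry in the promoter table, because 5 of the 6 have a TOP run at their annotated start and the muscle paralog Rpl3l does not. They come from RefSeq (build GRCm38.p6; the processing notes of the submitters name GRCm39, so these coordinates are not those of the deposited files) and run 5' to 3' from 100 bases before to 20 bases after the first listed transcription start. Capitals mark a TOP run, here a C followed by at least 4 pyrimidines and beginning within 5 bases of the start, and the ETS-factor core CCGGAA read on either strand. The windows are chr17:24727726-24727845 (+) for Rpl3l, chr9:66945986-66946105 (+) for Rps27l, chr3:28805408-28805527 (+) for Rpl22l1, chrX:37085203-37085322 (-) for Rpl39, chr14:18270967-18271086 (-) for Rpl15 and chr7:3703941-3704060 (+) for Rps9.
Rpl3l: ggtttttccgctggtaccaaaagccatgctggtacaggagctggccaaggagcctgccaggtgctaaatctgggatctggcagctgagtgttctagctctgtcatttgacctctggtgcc
Rps27l: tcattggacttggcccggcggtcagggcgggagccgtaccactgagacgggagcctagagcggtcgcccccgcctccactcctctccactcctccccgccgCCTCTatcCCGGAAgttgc
Rpl22l1: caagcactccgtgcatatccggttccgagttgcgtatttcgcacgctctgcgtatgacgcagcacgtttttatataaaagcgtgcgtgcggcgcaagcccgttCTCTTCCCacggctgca
Rpl39: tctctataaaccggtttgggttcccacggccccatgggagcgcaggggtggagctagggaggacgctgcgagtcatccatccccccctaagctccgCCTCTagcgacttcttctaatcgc
Rpl15: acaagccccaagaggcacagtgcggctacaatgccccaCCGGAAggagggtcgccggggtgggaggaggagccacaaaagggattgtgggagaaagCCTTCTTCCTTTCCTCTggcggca
Rps9: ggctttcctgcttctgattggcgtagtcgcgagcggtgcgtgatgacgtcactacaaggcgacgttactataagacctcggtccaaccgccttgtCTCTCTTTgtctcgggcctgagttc
The TOP run of Rpl15 is 17 bases long, those of Rpl22l1 and Rps9 are 8 bases, and those of Rps27l and Rpl39 are 5 bases. No TOP run overlapped a CCGGAA in these windows.

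Among 61 members with a promoter of 300 bases in the table, 27 (44.3%) had a TOP run, against 21.2% of all 27025 genes listed and 23.6% of 9270 tested genes. CCGGAA was present in 33 members (54.1%), against 16.7% of all genes and 31.8% of tested genes. The YY1 core AAGATGGC was in 5 (8.20%, against 3.19% and 5.39%), the E-box CACGTG in 6 (9.84%, against 8.09% and 12.0%) and the TATA box TATAAA in 8 (13.1%, against 15.7% and 8.80%), each read on both strands. These are letter matches in annotated windows. No promoter is shown for Rpl29.

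Ribosomal protein transcripts together held between 2.55% and 4.67% of the summed RPKM of a library. The share was 4.67%, 3.11% and 3.17% in middle-aged replicates 1 to 3. It was 3.65%, 3.20% and 2.55% in VCAM1-high. The VCAM1-low pair had 3.11% and 2.89%, and the VCAM1-negative libraries 2.81%, 2.71% and 2.69%. All 3 VCAM1-negative libraries lay below all 3 middle-aged ones, while VCAM1-high overlapped both groups: its replicates 1 and 2 lay above middle-aged replicates 2 and 3, and its replicate 3 was the lowest of all 11 libraries. Group means were 3.65% ± 0.884 (SD, n = 3), 3.13% ± 0.551 (n = 3), 2.999% ± 0.151 (n = 2) and 2.74% ± 0.0673 (n = 3), so the spread between libraries was widest in the middle-aged and narrowest in the VCAM1-negative group. In bulk libraries a smaller share can be fewer cells with high levels, less of these mRNAs per cell or more RNA of other genes. These cannot be told apart. Short transcripts outside the family also shifted between libraries, as given below, and the part of transcript length in these shares was not tested.

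**Figure D1:**
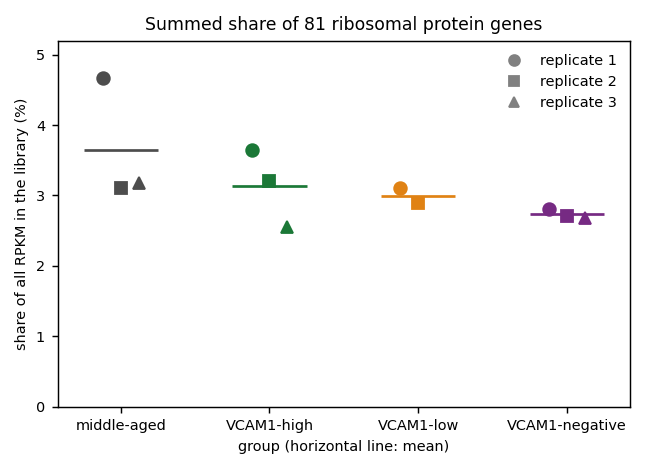
Summed RPKM of the 81 ribosomal protein genes as a percentage of all RPKM in each library (vertical axis, from 0), by group; symbols are replicate numbers and horizontal lines group means. Middle-aged replicate 1 stands at 4.67%, and the VCAM1-negative libraries lie between 2.69% and 2.81%.

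Levels of the members went up and down together between libraries. Middle-aged replicate 1 had the highest level of 76 of the 77 members with a mean of at least 5 RPKM, the exception being Rpl22l1, with median ratios of 1.62 to each of the other middle-aged libraries. VCAM1-high replicate 3 had the lowest level of 41 members and VCAM1-negative replicate 3 of 24. The median ratio of VCAM1-high replicate 3 was 0.581 to its replicate 1 and 0.695 to its replicate 2. As a description across these libraries, which share their depth and RNA quality over genes, the correlation of a member with the mean of the others had a median of 0.95 and exceeded 0.9 for 60 of 77. It was lowest for Rpsa (0.569), the laminin-receptor protein of the small subunit, Rplp0 (0.600) of the stalk that recruits elongation factors, Rpl22 (0.648) and Rpl4 (0.656).

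**Figure D2:**
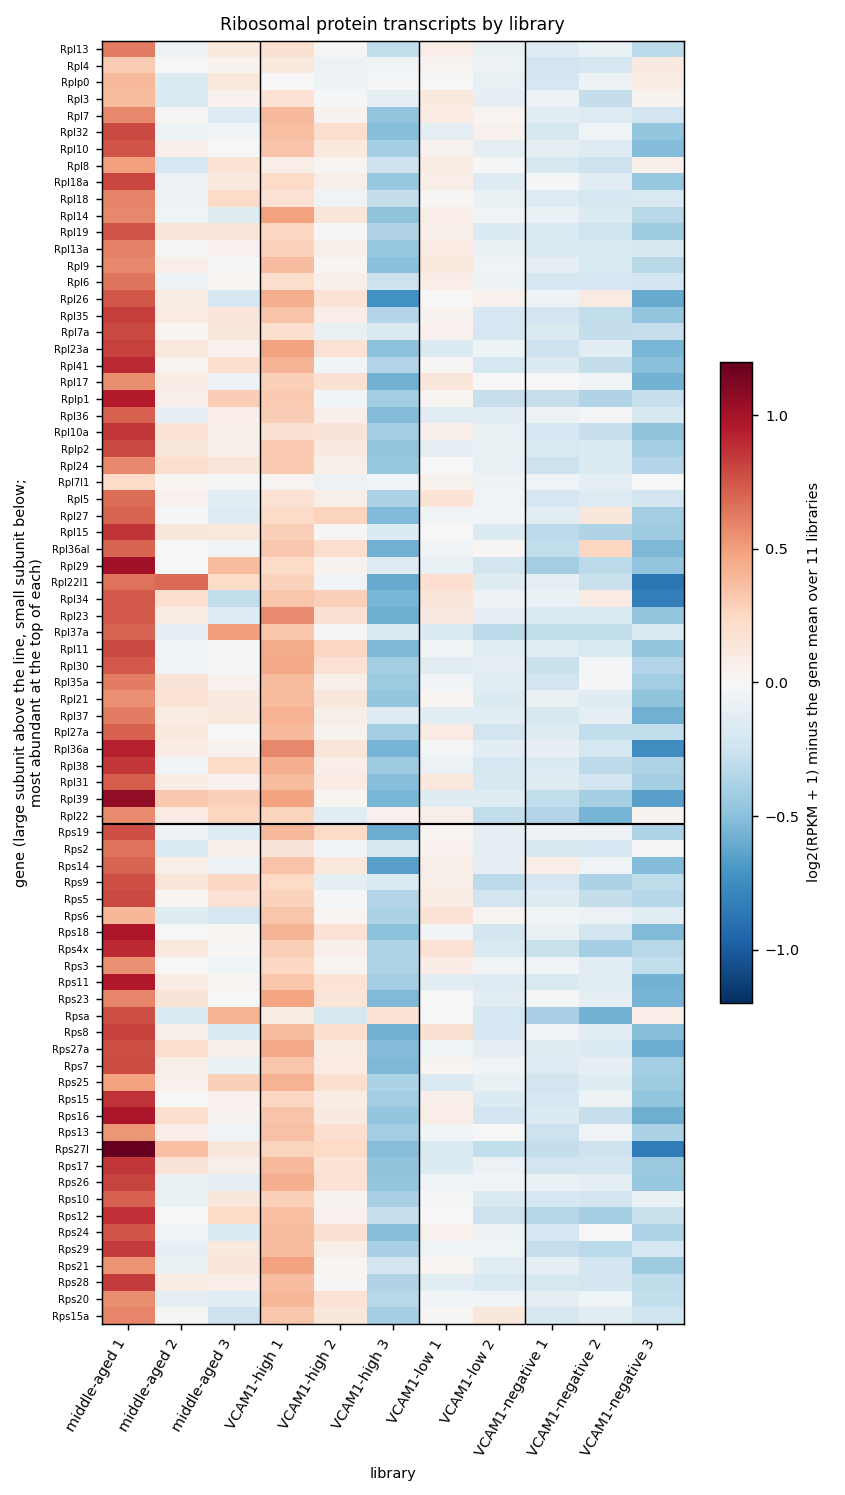
Log2(RPKM + 1) of 77 members (rows, large subunit above the line) minus the mean of each gene over the 11 libraries (columns). The column of middle-aged replicate 1 is above the gene mean throughout, and most of the columns of VCAM1-high and VCAM1-negative replicate 3 are below it.

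The order of the members hardly changed: Spearman correlations of member levels between libraries lay between 0.974 and 0.997 over 55 pairs. The most abundant were the large-subunit genes Rpl13 (mean 1013 RPKM over 11 libraries) and Rpl4 (902 RPKM), and Rplp0 (714 RPKM). The least abundant tested members were Rpl3l (1.87 RPKM), Rps15a (8.56 RPKM) and Rps20 (15.7 RPKM). Small-subunit transcripts made up 32.7% to 36.9% of the family's RPKM. The sources used here do not give the gene lengths that the authors divided by, so differences in level between genes hold only for those lengths.

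The comparison of VCAM1-negative with middle-aged cells asked how the cells lacking the surface marker differ from those of younger adults. Here 6 members fell and 1 rose (limma, adjusted p under 0.05 over all genes, with no minimum fold). The 7 are 8.97% of the tested members, against 14.4% of all genes called, the 6 that fell are 7.69%, against 7.38% of all genes, and the 1 that rose is 1.28%, against 7.06%. With the replicate number as a block, 42 members were called (41 lower, 1 higher), against 31.6% of all genes, so how the share of members stood against that of all genes depended on the model. Deviations from the group means correlated over the members at 0.44 to 0.75 between same-numbered middle-aged and VCAM1-negative libraries. Over all genes they correlated at -0.02 to 0.08. Such correlations leave out the shift that all members of a library share. That shift, as the median log2 deviation of the members, was 0.47, -0.22 and -0.24 in middle-aged replicates 1 to 3. In VCAM1-negative replicates 1 to 3 it was 0.07, 0.06 and -0.14, so replicate 2 had opposite signs. At an unadjusted p under 0.05 there were 34 members (43.6%, against 33.8% of all genes), of which 33 were lower (42.3%, against 17.9%). The fitted log2 fold change was below 0 for 77 of 78 members, against 51.6% of all genes, with a median of -0.49 (all genes -0.02). The 3 VCAM1-negative libraries lay below all 3 middle-aged libraries for 50 members (64.1%, against 20.3% of all genes). Medians were close in both subunits, -0.49 in the large and -0.51 in the small. RPKM values are relative within a library. Division by the family's own geometric mean, which centres the members near 0 by construction (median 0.02), moved the median of all genes from -0.02 to 0.40.

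Size and calls both rested on single libraries, and cell type markers differed between these groups as well: of 8 muscle stem cell markers 3 fell (6 with the replicate block), and of 10 myofibre genes 9 rose. Their part in the member values was not tested. Without middle-aged replicate 1 the median was -0.28, 76 of 78 members stayed below 0, and Rpl3l was the one member called. No member was called without VCAM1-negative replicate 2. Without middle-aged replicate 1 and all number-3 libraries, a choice made after seeing the data, the median was -0.21 with 71 of 78 below 0, and no member or other gene was called.

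**Figure D3:**
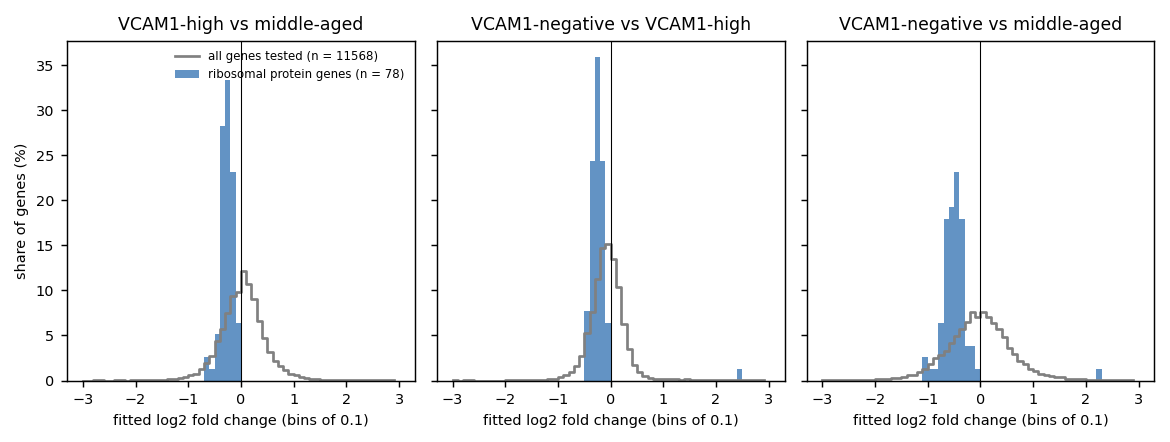
Share of genes (vertical axis, percent) by fitted log2 fold change on log2(RPKM + 1) in bins of 0.1, for 78 ribosomal protein genes (filled) and all 11568 tested genes (line), in 3 comparisons. The members lie mostly left of 0, with medians of -0.27, -0.25 and -0.49 from left to right, apart from Rpl3l at the far right in the comparisons with VCAM1-negative; division by their own geometric mean centres them near 0 by construction, with medians between -0.01 and 0.02.

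Short transcripts of other genes had fitted changes of a similar size. Among 604 tested genes outside the family whose principal transcript (GENCODE vM21) is under 1000 bases, the median log2 fold change of VCAM1-negative against middle-aged was -0.40, with 72.7% below 0. For 10667 other genes of 1000 bases or more it was -0.0004. Among 680 genes outside the family with a mean of at least 100 RPKM it was -0.09, nearer to 0 than that of the short genes. The 53 genes outside the family that were both short and at 100 RPKM or more had a median of -0.49, with 73.6% below 0, where the members had a like median but 98.7% below 0. Within the family, 49 members under 1000 bases had a median of -0.57 and 29 longer ones of -0.39, and the Spearman correlation of length with log2 fold change over 77 members was 0.44, given as a description.

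Similar shifts of short genes and members were seen in most single libraries, though not in all. In log2 deviation from the group mean, the short genes outside the family stood at a median of 0.32 in middle-aged replicate 1, against 0.47 for the ribosomal protein genes. In VCAM1-high replicate 3 they stood at -0.27 and the members at -0.42, and in VCAM1-high replicate 1 at 0.25 and 0.33. In VCAM1-high replicate 2, by contrast, the short genes stood at -0.001 and the members at 0.09. In VCAM1-negative replicate 2 the short genes were farther from 0, at 0.15, than the members, at 0.06. RNA quality and fragment length were not among the values used here, and their part in the difference was not tested. These length groups were chosen after the data were seen.

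The deepest decrease was that of Rps27l, a paralog of the small-subunit gene Rps27 and a known p53 target. Middle-aged replicates 1 to 3 held 209, 105 and 89.2 RPKM, and the VCAM1-high ones 97.9, 96.1 and 56.9 RPKM. The VCAM1-low pair held 72.1 and 66.1 RPKM, and VCAM1-negative replicates 66.6, 68.4 and 45.2 RPKM. Every VCAM1-negative library was below every middle-aged one, while VCAM1-high overlapped both. The log2 fold change of VCAM1-negative against middle-aged was -1.07 ± 0.32 (SE; limma, adjusted p = 0.0484), and without middle-aged replicate 1 it was -0.70 (adjusted p = 0.143).

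Rpl39, a small protein lining the peptide exit tunnel, fell next. Its level was 59.7, 35.1 and 34.3 RPKM in the middle-aged libraries, against 22.6, 21.01 and 17.4 RPKM in the VCAM1-negative ones. VCAM1-high libraries had 39.4, 28.3 and 18.8 RPKM, and both VCAM1-low libraries about the same level, 25.1 and 25.2 RPKM. The middle-aged and VCAM1-negative libraries did not overlap. The log2 fold change between them was -1.01 ± 0.28 (adjusted p = 0.0378).

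Rpl22l1 is the paralog of Rpl22 and outweighed it in every library. Libraries of middle-aged cells had 97.9, 99.8 and 72.6 RPKM of it. In geriatric cells the levels were 75.3, 60.2 and 40.2 RPKM for VCAM1-high, 71.1 and 55.8 for VCAM1-low, and 57.2, 51.3 and 33.4 for VCAM1-negative, so replicate 3 was the lowest of each group that has one. Of the 77 members with a mean of at least 5 RPKM it was the one not highest in middle-aged replicate 1. The log2 fold change of VCAM1-negative against middle-aged was -0.94 ± 0.27 (adjusted p = 0.0426). The ratio of Rpl22l1 to Rpl22 ran from 2.0 in VCAM1-negative replicate 3 and 2.38 in VCAM1-high replicate 3 to 5.72 in middle-aged replicate 2, with 3.70 to 4.78 in the other 8 libraries. Replicate 3 had the lowest ratio of each group that has one, though at 3.70 in middle-aged it was close to VCAM1-high replicate 1 at 3.82.

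Rpl29, Rpl15 and Rps9 completed the set that fell. Rpl29, a large-subunit protein, stood at 136, 67.2 and 87.3 RPKM in middle-aged and 49.7, 53.6 and 47.7 in VCAM1-negative, a log2 fold change of -0.87 ± 0.23 (adjusted p = 0.0344). Rpl15, a large-subunit protein needed for ribosomal RNA processing, stood at 126, 76.1 and 75.8 against 55.4, 53.6 and 51.4 RPKM, a change of -0.74 ± 0.21 (adjusted p = 0.0433). Rps9 of the small subunit stood at 549, 356 and 382 against 280.2, 247 and 260.3 RPKM, a change of -0.68 ± 0.21 (adjusted p = 0.0484). All 3 had groups that did not overlap.

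All 6 decreases lost their call without middle-aged replicate 1. Over the 11 single omissions, the adjusted p stayed under 0.05 in 6 for Rpl29, 5 for Rpl39, 3 for Rpl22l1, 2 for Rps27l and 1 each for Rpl15 and Rps9. After division by the family's geometric mean none of the 6 was called, and the farthest below the family were Rps27l at -0.56 (adjusted p = 0.105), Rpl39 at -0.51 (adjusted p = 0.102) and Rpl22l1 at -0.43 (adjusted p = 0.236).

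**Figure D4:**
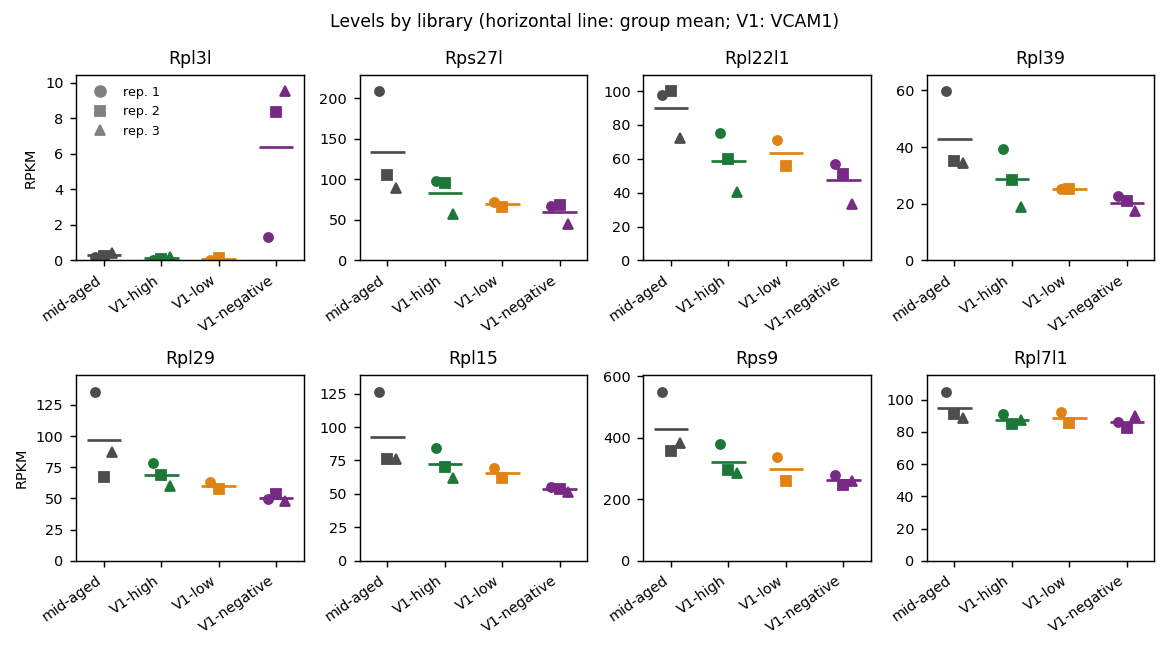
RPKM (vertical axes, from 0) by group for the 7 members called in VCAM1-negative against middle-aged and for Rpl7l1; symbols are replicate numbers and lines group means. Rpl3l is above 1 RPKM in VCAM1-negative libraries, the next 6 are lowest on average there, and Rpl7l1 stays between 82.6 and 105 RPKM.

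Rpl7l1, a paralog of Rpl7, varied little. It lay between 82.6 and 105 RPKM in all libraries, and its log2 fold change of VCAM1-negative against middle-aged was -0.13 ± 0.14 (adjusted p = 0.545). Rps6, the small-subunit protein phosphorylated by S6 kinase, had 357, 245 and 233 RPKM in middle-aged libraries, against 264, 257 and 248 RPKM in the VCAM1-negative ones and 341, 275 and 207 RPKM for VCAM1-high, with a VCAM1-negative to middle-aged change of -0.09 ± 0.22 (adjusted p = 0.792). Its middle-aged and VCAM1-negative values overlapped. Rplp0, at 619 to 929 RPKM over all libraries, had a change of -0.18 ± 0.17 (adjusted p = 0.494). Relative to the family's geometric mean Rps6 was at 0.42 (adjusted p = 0.138), Rpl7l1 at 0.38 (adjusted p = 0.279) and Rplp0 at 0.34 (adjusted p = 0.336), none of them called.

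Of the other stalk proteins, Rplp1 had a log2 fold change of -0.74 ± 0.25 (adjusted p = 0.0680) and Rplp2 of -0.58 ± 0.24 (adjusted p = 0.121), both without overlap between the groups. Rpsa was at -0.64 ± 0.25 (adjusted p = 0.105). Rpl5 and Rpl11, which can bind the p53 inhibitor Mdm2, were at -0.39 ± 0.22 (adjusted p = 0.239) and -0.51 ± 0.28 (adjusted p = 0.228), close to the family median.

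Rpl3l was the one member that rose. It is the striated-muscle paralog of Rpl3, a protein at the peptidyl transferase centre. VCAM1-negative replicates 1 to 3 had 1.31, 8.35 and 9.51 RPKM. Middle-aged replicates had 0.190, 0.260 and 0.419 RPKM, VCAM1-high replicates 0.0484, 0.0797 and 0.210 RPKM, and the VCAM1-low libraries 0 and 0.161 RPKM. The VCAM1-negative libraries were above all others, and replicate 1 was far below replicates 2 and 3. The log2 fold change on log2(RPKM + 1), which understates changes of low genes, was 2.24 ± 0.45 against middle-aged (limma, adjusted p = 0.0144), and it was not called without VCAM1-negative replicate 2. Rpl3l reached 1 RPKM only in the VCAM1-negative libraries, so it entered every test through the group where it is high, and its p-values are to be read with that. With no filter on low values the adjusted p was 0.0369.

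Rpl3l rose with the myofibre transcripts. The VCAM1-negative libraries at 1.31, 8.35 and 9.51 RPKM of Rpl3l had summed levels of the 10 myofibre genes of 635, 6547 and 5232 RPKM. The other 8 libraries had at most 300.2 RPKM of these genes and at most 0.419 RPKM of Rpl3l. Of the 10 myofibre genes, 9 rose in VCAM1-negative against middle-aged, and Acta1, skeletal muscle actin, stood at 280.4, 3040 and 2254 RPKM. The part of myofibre RNA in the Rpl3l result was not tested. Rpl3 itself stood at 404 to 637 RPKM in all libraries, so Rpl3l reached at most 0.0207 of its level.

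**Figure D5:**
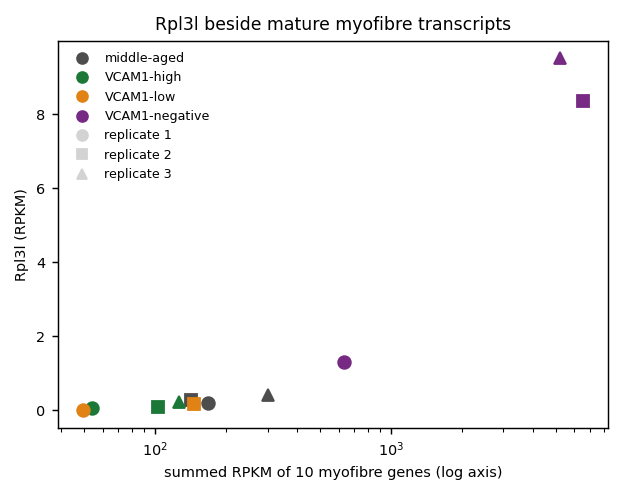
RPKM of Rpl3l (vertical axis) against the summed RPKM of 10 mature myofibre genes (horizontal log axis) in each library; colours are groups and symbols replicate numbers. The VCAM1-negative libraries are highest on both axes, with replicate 1 (1.31 RPKM) well below replicates 2 and 3.

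The comparison of VCAM1-negative with VCAM1-high cells, both from geriatric mice, asked what goes with the loss of the marker. No member was called, and no other gene was either (0% called); at an unadjusted p under 0.05 there was 1 member, Rpl3l, and 6.53% of all genes. The fitted change was below 0 for 77 of 78 members, against 60.8% of all genes, with a median of -0.25 (all genes -0.07). Between groups 5 members were lower without overlap (6.41%, against 8.08% of all genes): Rpl15, Rpl29, Rps9, Rpl37a and Rpl7a, the last 2 named after their values were seen. Median member levels were 134, 120 and 83.4 RPKM in VCAM1-high replicates 1 to 3 and 93.8, 95.6 and 84.3 in VCAM1-negative, so the groups differed in numbers 1 and 2 and hardly in number 3. Without number-3 libraries the median log2 fold change was -0.38, and without VCAM1-high replicate 1 it was -0.07.

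The lowest 3 members in that comparison were Rps27l (-0.45 ± 0.32, adjusted p = 0.857), Rpl29 (-0.44 ± 0.23, adjusted p = 0.822) and Rpl39 (-0.43 ± 0.28, adjusted p = 0.850). The nearest to 0 were Rpl7l1 (-0.02 ± 0.14, adjusted p = 0.979), Rplp0 (-0.03 ± 0.17, adjusted p = 0.979) and Rpl36 (-0.04 ± 0.25, adjusted p = 0.984). Rpl3l was 2.46 ± 0.45 higher, with an adjusted p of 0.0968 without the replicate block and 0.0245 with the block in the 8 geriatric libraries. Without VCAM1-negative replicate 1 its adjusted p was 3.99e-05. Rpl3l entered each of these tests through its VCAM1-negative values, the group where it is high, so none of these p-values is separate support for the rise. Short genes outside the family had a median of -0.21 here, and the 53 short and abundant ones -0.28.

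Between VCAM1-high and middle-aged cells, which differ in age and also in the VCAM1 gate, no member was called, against 0.605% of all genes, and 1 member, Rpl22l1, had an unadjusted p under 0.05, against 14.9%. All 78 members were below 0 on the fitted scale, against 45.6% of all genes, with a median of -0.27 (all genes 0.04), and no member was without overlap between the groups, against 20.2% of all genes. This direction depended on libraries. VCAM1-high replicate 1 was above middle-aged replicate 2 in 75 of 77 members and above replicate 3 in 70. The median was -0.05 without middle-aged replicate 1 and -0.07 without VCAM1-high replicate 3. Without middle-aged replicate 1 and all number-3 libraries it was 0.15, with 69 of 78 members above 0.

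Rpl22l1 was the farthest below 0 in that comparison, at -0.64 ± 0.27 (adjusted p = 0.297 without and 0.0277 with the replicate block), followed by Rps27l (-0.62 ± 0.32, adjusted p = 0.393) and Rpl39 (-0.57 ± 0.28, adjusted p = 0.364). Nearest to 0 here were Rps20 (-0.02 ± 0.23, adjusted p = 0.972), Rps6 (-0.02 ± 0.22, adjusted p = 0.969) and Rpl3 (-0.07 ± 0.18, adjusted p = 0.879). Short genes outside the family had a median of -0.22.

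With 2 libraries, VCAM1-low lay between the other geriatric groups in mean share of RPKM, but both libraries (3.11% and 2.89%) lay within the VCAM1-high range of 2.55% to 3.65%. No member was called against VCAM1-high (0% of all genes called; at an unadjusted p under 0.05 no member and 2.91% of all genes), with a median of -0.05, against -0.09 for all genes, and the sign of that median turned under another scaling. None was called in VCAM1-negative against VCAM1-low (0% of all genes; at an unadjusted p under 0.05 Rpl3l and 1.88% of all genes), where 30 members (38.5%) were lower without overlap, against 5.1% of all genes, and the median was -0.19. Against middle-aged cells none was called, while 4.11% of all genes were, 5 members and 26.4% of all genes had an unadjusted p under 0.05, and the median was -0.33. With the replicate block Rps9, Rps27a, Rps16, Rps27l, Rpl22l1 and Rpl39 passed in that comparison, against 15.8% of all genes, a naming that follows their values. Over all genes, deviations from the group means correlated at 0.15 and 0.03 between same-numbered middle-aged and VCAM1-low libraries. Over the members they correlated at 0.08 and 0.09, so the block takes a pairing here that these values hardly show. The F test over the 4 groups called 1 member, Rpl3l (adjusted p = 0.0318), which passed the filter on low values only through VCAM1-negative, against 3.32% of all genes.

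Paralog pairs give a view within the family. Rpl7l1 stood at 0.178 to 0.310 of the level of Rpl7, highest in VCAM1-high replicate 3, and Rpl36al at 1.63 to 2.70 times that of Rpl36a, highest in VCAM1-negative replicate 2. Rpl10l, a germ-cell paralog of Rpl10, was listed at 0 in all libraries while Rpl10 stood at 211 to 513 RPKM. Reads shared between copies limit all of these values. The median member shared 43.9% of the 50-base words of its principal transcript with transcripts of other genes, and 31 of 77 shared more than 50%. That share was 0% for Rpl3l, 16.2% for Rpl39, 22.4% for Rps27l, 26.8% for Rps9, 30.2% for Rpl15, 57.3% for Rpl22l1, 66.2% for Rpl29, most of whose sharing genes are pseudogenes, and 85.6% for Rpl3. The sources used here do not say how reads with several matches were counted, so levels of the last 3 are uncertain.

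Companion lists were read in VCAM1-negative against middle-aged, the comparison with calls. Fau, Rack1 and Rps3a1, the 3 ribosomal genes read outside the symbol rule, had a median of -0.47, near that of the family, with none called (2 lower with the replicate block); the smallest adjusted p was that of Rack1 (-0.66 ± 0.21, adjusted p = 0.0565). Of 15 genes of translation elongation and other TOP mRNAs, 1 fell (3 with the replicate block), Hnrnpa1, an RNA-binding protein (-0.76 ± 0.17, adjusted p = 0.0194), with a list median of -0.22. Of 78 mitochondrial ribosomal protein genes, which serve the separate ribosome of mitochondria, 4 fell and none rose (23 and 2 with the replicate block), with a median of -0.27. They were Mrpl36 (-1.12 ± 0.27, adjusted p = 0.0244), Mrps21 (-1.04 ± 0.26, adjusted p = 0.0284), Mrpl57 (-0.72 ± 0.22, adjusted p = 0.0480) and Mrpl24 (-0.55 ± 0.17, adjusted p = 0.0491).

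Lists of genes that build or watch over ribosomes had medians above 0. The lists were not matched for transcript length, and its part in their medians was not tested. In this comparison genes outside the family had a median of -0.40 under 1000 bases and of -0.0004 at 1000 bases or more. Of 36 ribosome biogenesis genes 3 rose and none fell (7 and 2 with the replicate block), with a median of 0.21: Rrp1b, a nucleolar protein (1.32 ± 0.18, adjusted p = 0.00393), Rrs1, which acts in large-subunit assembly (1.09 ± 0.27, adjusted p = 0.0261), and Nop2, a ribosomal RNA methyltransferase (0.80 ± 0.24, adjusted p = 0.0478). Of 11 genes of RNA polymerase I, which makes ribosomal RNA, Taf1c rose (1.10 ± 0.24, adjusted p = 0.0191) and Polr1d fell (-0.73 ± 0.17, adjusted p = 0.0221), with a median of 0.25 (2 higher and 1 lower with the block). Among 17 genes of mTORC1 signalling and TOP control 2 rose (3 with the replicate block), Tsc1, which restrains mTORC1 (1.24 ± 0.23, adjusted p = 0.0105), and Myc (0.82 ± 0.21, adjusted p = 0.0289), with a median of 0.10. Among 14 ribosome surveillance genes 2 rose (also 2 with the replicate block), Zfp622 (0.66 ± 0.18, adjusted p = 0.0342) and Ankzf1 (0.59 ± 0.18, adjusted p = 0.0483), with a median of 0.20. The 2 ribosomal protein pseudogenes tested had a median of -0.41, with none called. Counts without the block are to be read against the 14.4% of all genes called. Those with the block are to be read against the larger share of all genes called under that model, given above. No gene of these lists was called in VCAM1-negative against VCAM1-high, with or without the replicate block in 11 libraries. In VCAM1-high against middle-aged none was called without the block. With it, 2 ribosome biogenesis and 2 mTORC1 and TOP control genes were higher, and 3 mitochondrial ribosomal protein genes and 1 of RNA polymerase I were lower. The share of all genes called with the block in this comparison is not given beside these counts. They are therefore not read as a result about these lists.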

How the data were processed

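Per the labels' protocols, libraries came from total RNA of sorted cells by SMART-Seq v4 amplification, read from both ends. The authors deposited RPKM values for 20640 gene symbols in 11 libraries; the sources used here do not give the counting tool, annotation or gene lengths. STAR 2.7.5b, SAMtools 0.1.19, Bowtie2 2.1.0 and cutadapt 3.1 are named, without roles, in the submitters' processing notes, as is build GRCm39. Members and gene lists were chosen with earlier results of these data known.

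From the deposited RPKM, log2(RPKM + 1) was fitted with limma 3.58.1 (R 4.3.3; 4 group means, all 11 libraries, variance trend). A gene entered the test when 2 or more libraries had it at 1 RPKM or above (11568 genes), with Benjamini-Hochberg adjustment over all of them, and called at adjusted p under 0.05. The model was tested on simulated data. Fold changes are on the log2(RPKM + 1) scale with standard errors. Named members are those called, the 3 farthest changes each way in the main comparisons, the 3 most and least abundant, paralog pairs, stalk and laminin-receptor genes, Rps6, Rpl5 and Rpl11. From companion lists up to 4 genes with the smallest p were taken, and of those the called ones are given.

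Depth was estimated from low RPKM values (at most 0.1) of 3428 single-transcript genes. Between 62.5% and 73.0% of those values lay within 0.1 of a whole read, too few to recover reads, so no count test was run. Alternatives were other pseudocounts, filters, scalings, groups, single omissions and a replicate block. Residuals of same-numbered libraries correlated at 0.40 to 0.58 between VCAM1-high and VCAM1-negative and at 0.21 to 0.55 between middle-aged and VCAM1-high. The numbers were therefore taken to pair those libraries, from the data and not from the labels. For middle-aged libraries this pairing is uncertain. Middle-aged replicate 2 correlated at 0.33 with VCAM1-high replicate 1 and at 0.33 with VCAM1-high replicate 2, while the number-1 pair correlated at 0.21. Same-numbered middle-aged and VCAM1-negative libraries correlated at -0.02 to 0.08 over all genes, though at 0.44 to 0.75 over the members. Lengths and shared 50-base words come from GENCODE vM21 principal transcripts, with a length for 98.1% of tested genes.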

Additional observations from a re-analysis of the deposited data

How the results depend on the processing

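The number of members called in VCAM1-negative against middle-aged, 7, was 1 without a filter on low values, 3 with only the groups compared, 0 without the number-3 libraries, 1 after division by the members' geometric mean and 0 without middle-aged replicate 1 and all number-3 libraries. Leaving out 1 library at a time gave 0 to 8. With the replicate block it was 42 (all genes 31.6%). Deviations of same-numbered libraries of these groups correlated over the members, apart from the shift shared by all members, and not over all genes. The cause was not tested. In VCAM1-negative against VCAM1-high, 0 became 1 (Rpl3l) with a pseudocount of 0.1 and with the replicate block in 11 or in 8 libraries, and 0 to 1 over single omissions. In VCAM1-high against middle-aged the replicate block gave 1, in VCAM1-low against middle-aged 6, and in the F test 9 in place of 1. The F test gave 0 with no filter, with a mean of at least 5 RPKM, without number-3 libraries and without those and middle-aged replicate 1, and 0 to 1 over single omissions. VCAM1-negative against VCAM1-low gave 0 to 1. The replicate block changed no other count of members called, and its counts for companion lists in the main comparisons stand in the report. Most of the member counts in this paragraph are given without the share of all genes called under the same setting. They show how the calls depend on the setting and are not read as results about the family.

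Division by the members' geometric mean centres their median log2 fold changes near 0 by construction: it was 0.0153 in VCAM1-negative and -0.0165 in VCAM1-low against middle-aged, 0.0019 in VCAM1-negative against VCAM1-low and 0.0036 in VCAM1-low against VCAM1-high. Elsewhere medians kept their sign except as follows. Without middle-aged replicate 1 and all number-3 libraries that of VCAM1-high against middle-aged was 0.15. That of VCAM1-low against VCAM1-high was 0.05 under median-ratio scaling and -0.27 to 0.11 over single omissions. Single omissions moved the others over -0.60 to -0.28, -0.44 to -0.05 and -0.46 to -0.07 in the main comparisons, against a spread between libraries of 0.29 (pooled SD). The number of libraries, 2 or 3 per group, limits every comparison, and Rpl3l outside VCAM1-negative libraries lies at or below 0.419 RPKM, under the filter of 1 RPKM.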
